A study of Homo sapiens with 16 samples.

Results

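The established clear cell renal carcinoma lines 786-O and A498 were compared in 5 of the 16 poly-A RNA-seq libraries of a study of the histone methyltransferase gene SETD2. The libraries were chosen by their labels: 3 of 786-O with wild-type SETD2 treated with DMSO, and 2 of A498 in which SETD2 had been added back. The 786-O cells had received DMSO, the vehicle of the BCL-xL inhibitor A1331852, and the A498 cells had received nothing; both were grown in RPMI with FBS and harvested after 72 hours. A498 is used in the study as a SETD2-deficient line, so its add-back libraries are the ones labelled SETD2 WT; the add-back construct, and whether any of these cells were single clones, are not given in the sources used here. Of the 786-O libraries, replicates 1 and 2 were labelled batch 2 and replicate 3 batch 1, and both A498 libraries were batch 3. Line, batch 3 and the absence of DMSO therefore coincide and cannot be told apart, and only differences on which both 786-O batches agreed are called large below. Whether replicates came from separate cultures is not in the labels, so the p-values reflect library-to-library spread alone, which may be technical. That spread was widest between the 786-O batches, with batch 1 held by replicate 3 alone. The mean chi-square of counts per gene was 3.47 between 786-O replicates 1 and 2, and 114.8 and 118.1 against replicate 3. Between the A498 libraries, of 1 batch, it was 5.62. In bulk RNA, fewer cells with a transcript and less of it per cell cannot be told apart.

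Clear cell renal carcinoma arises from the renal tubule and usually loses VHL, the substrate receptor of the ubiquitin ligase that removes hydroxylated hypoxia-inducible factors (HIF-1α from HIF1A, HIF-2α from EPAS1). Without VHL the factors persist in normal oxygen and switch on genes of glycolysis, angiogenesis and growth. Tubule identity is held by transcription factors such as PAX2 and PAX8, and renal carcinoma lines keep parts of that programme to different degrees. Both lines are widely used as models of VHL-deficient disease.

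The 5 libraries held 15199420 to 36037616 counts. Values are CPM (counts scaled to library size, edgeR, with TMM factors), listed for A498 add-back replicates 1 and 2 and for 786-O replicates 1, 2 and 3, in that order. Differences are log2 values from edgeR's quasi-likelihood fit, A498 minus 786-O, and a call is a Benjamini-Hochberg adjusted p under 0.05 over 16145 genes. A large difference is a called one of at least 4-fold (2 on the log2 scale) that is also at least 4-fold against each 786-O batch alone. Where a group held no count, the fold is a lower bound against 3 counts over the group. With 1 to 3 counts, it is a ratio of count totals with a 95% exact counting interval. Bounds and intervals cover counting error only. Most genes below were named for a large called change, so A498 libraries lying apart from all 786-O libraries is largely set by that choice. The share of all genes so separated in the 5 libraries was not counted.

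The renal epithelial markers PAX8, PAX2, CDH6, KRT8 and KRT18 were detected in all 5 libraries, at the levels given with their gene groups. All 7 leukocyte markers stayed at a sum of 0.889 to 1.41 CPM in A498 and 0.197 to 0.352 CPM in 786-O, and none passed the filter. The 3 hepatocyte markers summed to 0.209 to 0.325 CPM and 0 to 0.253 CPM; in the SETD2-deficient A498 libraries, used below only as a second set, they summed to 0.450 to 13.9 CPM. VWF, PECAM1, CDH5 and CLDN5 of the endothelial list were not tested, and the fifth, TEK, is described with the receptors.

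SETD2, on chromosome 3 at chr3:47016428-47164113 (GRCh38), stood at 44.0 and 52.8 CPM in A498 against 70.5, 73.4 and 63.4 CPM in 786-O. Its level was thus lower in the add-back cells than in wild-type 786-O, with a log2 difference of -0.50 (SE 0.13, adjusted p = 0.0313); this call was lost in 4 of the 5 fits that left out 1 library, with an adjusted p of up to 0.280 without A498 replicate 1. In the SETD2-deficient A498 libraries it stood at 40.6 and 58.5 CPM and in the 786-O knockout at 31.2, 29.4 and 29.3 CPM. The exon counts of SETD2 therefore separated wild type from knockout in 786-O, but did not separate add-back from deficient A498, whose ranges overlapped. VHL transcript was measured at 55.0 and 48.5 CPM against 56.0, 57.3 and 59.3 CPM, ranges that did not overlap, and was not called (a log2 difference of -0.14 (SE 0.13, adjusted p = 0.429)).

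Between the lines, 6617 of the 16145 genes were called (41.0%), 3354 higher in A498 (20.8%) and 3263 lower (20.2%). Large differences agreed by both batches numbered 1833 (11.4%), 1083 higher in A498 (6.71%) and 750 lower (4.65%). Of 2300 called genes with a fitted difference of at least 4-fold, 467 fell short of 4-fold against 1 or both batches. Of the same 2300, 0 had opposite signs against the batches. For scale, 2227 genes (13.8%) differed by at least 4-fold between the line means, against 380 (2.35%) between the batches of 786-O wild type and 293 (1.81%) between 786-O knockout and wild type. A further 345 (2.14%) differed that much between deficient and add-back A498. The median log2 difference over all genes was -0.05. Of the lists below, nephron transcription factors had a called share of 72.0%, proximal tubule genes 69.6% and distal nephron genes 81.8%. It was 62.9% of hypoxia targets, 66.7% of clear cell markers, 59.3% of receptor kinases, 70.6% of epithelial and 66.7% of mesenchymal genes. Neuronal and other lineage genes had 90.0%, detoxification 67.7%, lipid and glycogen 55.3% and inflammatory genes 56.5%. The lists were chosen with earlier results known. The number of calls rested on single libraries: it was 2221 without A498 replicate 1, 2205 without A498 replicate 2 and 12249 without 786-O replicate 3, while the large differences numbered 1406, 1361 and 2447. Leaving out an A498 library leaves 1, which is then assumed to vary like the 786-O libraries. Without 786-O replicate 3 no batch 1 library remains, so a large difference there needed 4-fold against batch 2 only.

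As a second set of libraries, the SETD2-deficient A498 pair was compared with the 3 DMSO-treated 786-O knockout libraries in a fit of its own. It shares no library with the comparison of wild types but shares the batches, the missing DMSO and the lines. There, 7284 of 16313 genes were called (44.7%), 3683 higher in A498 (22.6%) and 3601 lower (22.1%); calls fell to 4073 and 3704 without deficient replicate 1 or 2. Of the 1833 large differences between the wild types, 1617 were tested in the second set, 1452 were called in the same direction and 25 in the opposite one. All 4 A498 libraries lay on 1 side of all 12 786-O libraries, A1331852-treated ones included, for 1480 of the 1833 (80.74%). Over all genes tested the share above was 15.2% and the share below 12.2%. The 5 libraries that chose the 1833 are among these 16, so a higher share was largely set by that choice.

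**Figure D1:**
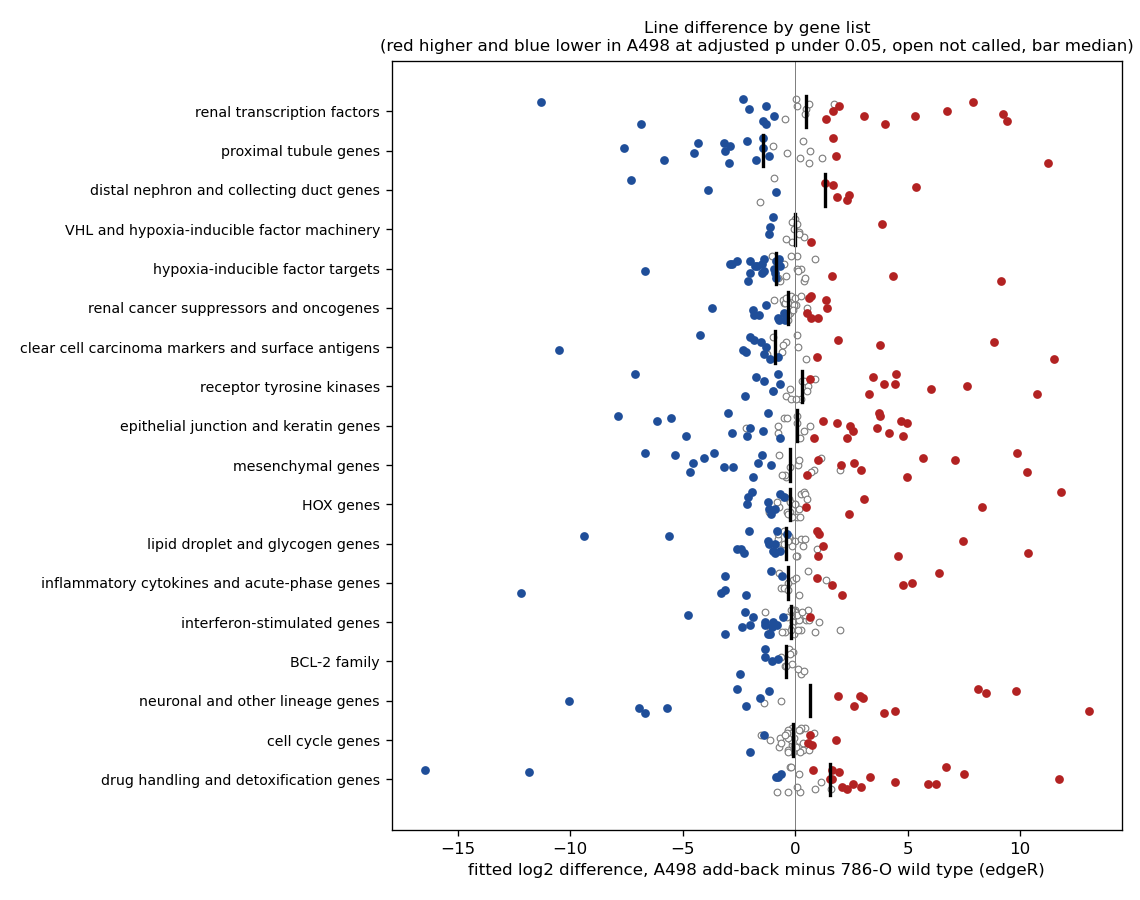
Each point is a tested member of the gene list named on the left, placed by its fitted log2 difference of A498 add-back minus 786-O wild type; red points were called higher in A498, blue points lower, open points were not called, and the black bar is the list median. Proximal tubule genes have a median of -1.42 and detoxification genes of 1.57, while the cell cycle list stays close to 0 with a median of -0.11.

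The nephron transcription factors differed in both directions. Of 34 listed, 25 passed the filter, of which 10 were higher and 8 lower in A498; 7 of the higher and 4 of the lower ones were large, and the list median was 0.48. Leaving out A498 replicate 1 gave 7 higher and 5 lower calls, A498 replicate 2 9 and 5, and 786-O replicate 3 13 and 8. Second-set calls of the list were 14 higher and 7 lower of 26 tested, with a median of 0.67. POU3F3, a regulator of distal nephron formation, was at 31.6 and 31.2 CPM in A498 against 0, 0.118 and 0 CPM in 786-O, 759-fold higher in A498 (counting interval 259 to 3690.0, adjusted p = 0.000300). SIX2, which maintains nephron progenitors, was at 2.87 and 3.82 CPM against 0, 0 and 0 CPM, at least 80.8-fold higher in A498 (adjusted p = 0.00229). GATA3, a marker of the ureteric bud and collecting duct, was at 3.35 and 3.82 CPM against 0.0319, 0 and 0.0633 CPM, 130.0-fold higher in A498 (counting interval 35.3 to 1090.0, adjusted p = 0.000770). HOXA11, which patterns the metanephric mesenchyme, was at 66.8 and 71.5 CPM against 8.69, 9.91 and 6.52 CPM, a log2 difference of 3.06 (SE 0.17, adjusted p = 0.000241). For these 4 genes both A498 libraries lay above every 786-O library. The POU3F3 difference was much smaller in the second set, at 2.84 on the log2 scale (adjusted p = 7.41e-05) against 9.41 between the wild types.

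The factors that were lower in A498 included those most used to recognise renal tubule. PAX2 was at 18.2 and 20.3 CPM in A498 against 46.8, 54.8 and 42.3 CPM in 786-O, a log2 difference of -1.30 (SE 0.15, adjusted p = 0.00176). PAX8, its close relative and a diagnostic marker of renal carcinoma, was at 118 and 130.0 CPM against 355, 380.4 and 203 CPM, a log2 difference of -1.31 (SE 0.27, adjusted p = 0.0124), and the difference was -0.78 against batch 1 and -1.52 against batch 2. In both the groups were apart, but A498 retained each transcript. SIM1, a factor of the proximal tubule primordium, was at 0.0541 and 0.157 CPM against 13.0, 12.04 and 14.2 CPM, a log2 difference of -6.86 (SE 0.40, adjusted p = 0.000256). WT1, the podocyte and nephron progenitor factor, was at 0 and 0 CPM against 18.6, 19.5 and 5.32 CPM, at least 181-fold lower in A498 (adjusted p = 0.00453). Their A498 libraries were at or next to 0, so SIM1 and WT1 were near-silent there and POU3F3 and SIX2 near-silent in wild-type 786-O. LHX1, needed for the early nephron, was at 93.1 and 79.6 CPM against 38.3, 39.7 and 25.2 CPM with a log2 difference of 1.35 (SE 0.20, adjusted p = 0.00429), while IRX3 (19.0 and 22.2 CPM against 23.3, 23.5 and 14.9 CPM) and MAF (68.4 and 57.6 CPM against 61.1, 62.7 and 132 CPM) overlapped between the lines and were not called. PAX8 (0.133 and 0.108) lost the call, at the adjusted p in brackets, in each fit without 1 A498 library (replicate 1, then 2), and LHX1 (0.0608) lost it without A498 replicate 1. In the second set 16 of the 18 called factors were called in the same direction; PAX8 was not, at a log2 difference of -0.28 (adjusted p = 0.349).

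Proximal tubule genes were mostly lower in A498: of 45 listed, 23 were tested, 13 were lower and 3 higher, with a median of -1.42, and 8 of the lower ones were large. CD24, a surface glycoprotein of tubule progenitors, was at 206 and 208 CPM in A498 against 1250.0, 1067 and 3048 CPM in 786-O, a log2 difference of -3.12 (SE 0.58, adjusted p = 0.00891). CDH6, the kidney cadherin, was at 57.9 and 60.01 CPM against 332, 314 and 686 CPM, a log2 difference of -2.92 (SE 0.46, adjusted p = 0.00509). ENPEP, the brush border aminopeptidase A, was at 2.97 and 2.98 CPM against 46.5, 41.9 and 112 CPM, a log2 difference of -4.49 (SE 0.62, adjusted p = 0.00342). All 3 were highest in 786-O replicate 3, the library of batch 1, and were still lower in A498 than in either replicate of batch 2. The transporters SLC17A3 (0.216 and 0.262 CPM against 4.67, 3.97 and 6.20 CPM) and SLC17A1 (0.0541 and 0 CPM against 1.41, 1.06 and 3.10 CPM) and the glutathione-degrading GGT1 (0.541 and 0.471 CPM against 5.18, 5.35 and 3.29 CPM) had the same order at lower levels, with a log2 difference of -4.33 (SE 0.42, adjusted p = 0.00107) for SLC17A3 and calls for all 3. HAVCR1, the kidney injury molecule KIM-1, was at 94.7 and 96.8 CPM against 309.9, 289 and 662 CPM, a log2 difference of -2.14 (SE 0.46, adjusted p = 0.0144). DPP4, a brush border peptidase, was at 49.9 and 50.8 CPM against 135, 121 and 249.4 CPM, a log2 difference of -1.75 (SE 0.39, adjusted p = 0.0165); both lines kept these 2 transcripts at clearly measurable levels. CD24 (0.0919 and 0.0889), CDH6 (0.0660 and 0.0631), DPP4 (0.127 and 0.122), HAVCR1 (0.120 and 0.115) and SLC17A1 (0.0573 and 0.0780) lost the call, at the adjusted p in brackets, in each fit without 1 A498 library (replicate 1, then 2), and ENPEP (0.0501) lost it without A498 replicate 2. Higher and lower calls of the list numbered 1 and 4 without A498 replicate 1, 1 and 5 without A498 replicate 2, and 6 and 15 without 786-O replicate 3. Its counts in the second set were 3 higher and 13 lower of 25 tested, with a median of -1.17.

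GPX3, the secreted glutathione peroxidase made by the proximal tubule, went the other way at 44.2 and 49.3 CPM in A498 against 0.0319, 0 and 0 CPM in 786-O, 3390.0-fold higher in A498 (counting interval 608 to 134000.0, adjusted p = 0.000104). It was the only large increase of the list, and in the second set it stood at 104 and 105 CPM in SETD2-deficient A498 against 0.0601, 0 and 0 CPM in knockout 786-O. ANPEP (34.5 and 36.8 CPM against 31.9, 35.7 and 17.3 CPM) and MME (24.6 and 26.3 CPM against 11.47, 10.7 and 25.6 CPM), the brush border aminopeptidase N and neprilysin, overlapped between the lines and were not called. In the second set both were called higher in A498, by 2.22 and 2.56 on the log2 scale. Of the 16 called genes, 11 were called in the same direction in the second set.

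Few distal nephron genes were expressed: 11 of 32 passed the filter, 6 were higher and 3 lower in A498, and 1 higher and 2 lower were large. CDH16, kidney-specific cadherin, was at 2.43 and 3.56 CPM in A498 against 31.6, 27.8 and 72.7 CPM in 786-O, a log2 difference of -3.88 (SE 0.60, adjusted p = 0.00497). FXYD2, the γ subunit that tunes the tubular sodium pump, was at 0.0541 and 0 CPM against 6.55, 4.68 and 4.37 CPM, 204-fold lower in A498 (counting interval 36.4 to 8070.0, adjusted p = 0.000851). Both were lower in the 2 A498 libraries than in any 786-O library. The vasopressin receptor AVPR2 was the large increase, at 0.919 and 0.628 CPM against 0.0319, 0 and 0 CPM, levels at which few reads decide the value. EGF, a growth factor of the distal convoluted tubule, was at 11.3 and 9.94 CPM against 3.99, 3.19 and 2.72 CPM, a log2 difference of 1.70 (SE 0.22, adjusted p = 0.00273), and KRT7, a keratin of collecting duct and papillary tumours, was at 11.2 and 8.79 CPM against 1.31, 2.28 and 2.59 CPM, a log2 difference of 2.31 (SE 0.35, adjusted p = 0.00456). CDH16 (0.0644 and 0.0531) lost the call, at the adjusted p in brackets, in each fit without 1 A498 library (replicate 1, then 2), and KRT7 (0.0543) lost it without A498 replicate 1. The list's median was 1.32 here and -0.24 in the second set, where 4 of the 9 called genes were called in the same direction. Without A498 replicate 1 the list held 1 higher and 1 lower calls, without A498 replicate 2 3 and 1, and without 786-O replicate 3 7 and 3.

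**Figure D2:**
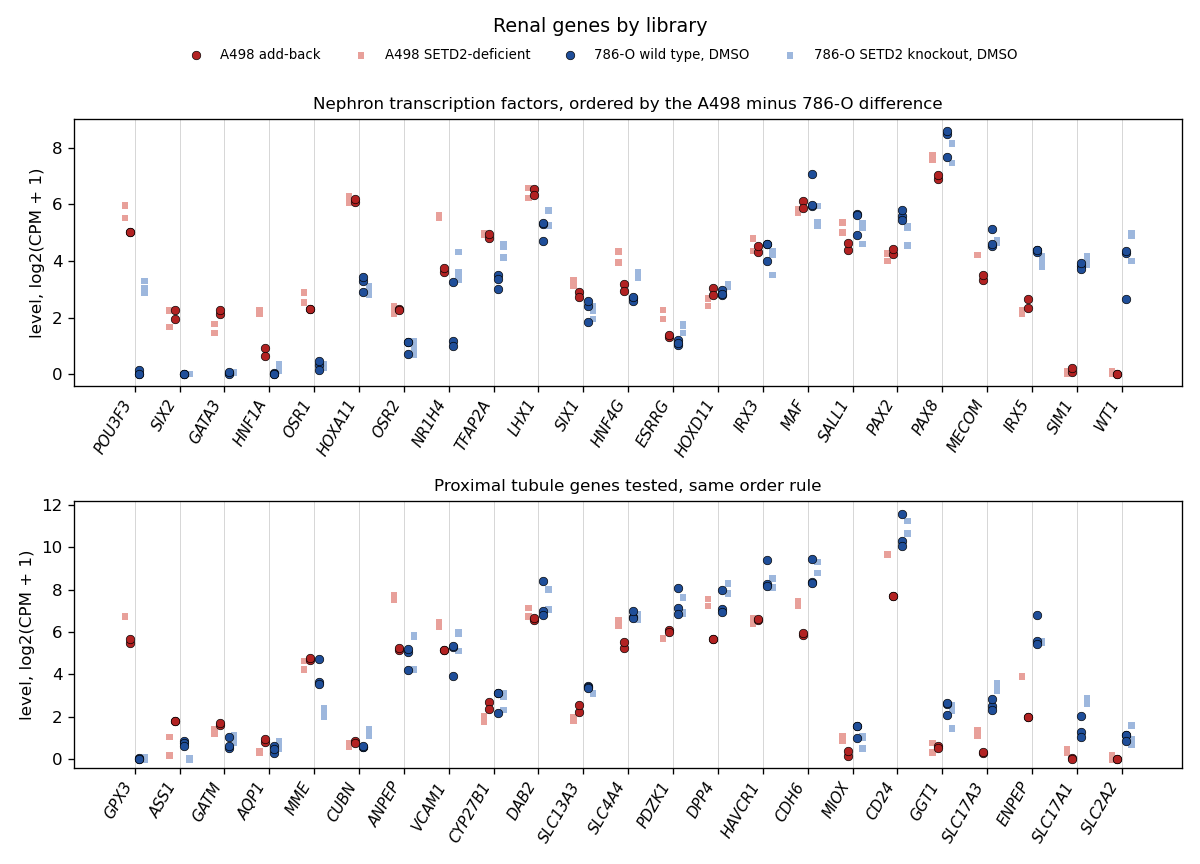
Levels as log2(CPM + 1) of tested nephron transcription factors (upper panel, 23 of 25 drawn) and proximal tubule gene (lower panel) in single libraries, with circles for A498 add-back and 786-O wild type and squares for SETD2-deficient A498 and 786-O knockout; genes run from the highest to the lowest A498 minus 786-O difference. POU3F3 and SIX2 at the left are near 0 in the 786-O wild type libraries, SIM1 and WT1 at the right are near 0 in A498, and in the lower panel CDH6, CD24 and ENPEP lie lower in both A498 sets than in 786-O.

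Of 14 tested members of the VHL and hypoxia-inducible factor machinery, 2 were higher and 3 lower in A498. Their called share was 35.7%, against 41.0% of all genes. HIF1A, at chr14:61695513-61748259, was at 204 and 202 CPM in A498 against 9.94, 9.87 and 22.2 CPM in 786-O, a log2 difference of 3.86 (SE 0.43, adjusted p = 0.00173); the difference was 3.13 against batch 1 and 4.39 against batch 2. EPAS1 was at 38.4 and 47.6 CPM against 107, 99.4 and 86.4 CPM, a log2 difference of -1.17 (SE 0.16, adjusted p = 0.00302). Each gene separated the lines in the opposite direction from the other. Scaled per kilobase of exon, HIF1A ran at 39.4 RPKM and EPAS1 at 5.89 RPKM in A498, and at 2.72 and 13.4 RPKM in 786-O, so the order of the 2 transcripts was reversed between the lines. The second set had the same order, with 91.8 and 8.74 RPKM in A498 and 2.62 and 10.7 RPKM in 786-O, although the EPAS1 difference there was -0.28 and not called. ARNT and ARNT2, which encode the partners of both factors, were lower in A498 by -0.97 and -1.13 on the log2 scale (SE 0.14 and 0.14, adjusted p = 0.00376 and 0.00218). ELOC, an adaptor of the VHL ligase, was higher by 0.71 (adjusted p = 0.00707). The other 9 of the 14 tested members, VHL and the prolyl hydroxylases EGLN1, EGLN2 and EGLN3 included, were not called. ELOC (0.0900 and 0.0643) lost the call, at the adjusted p in brackets, in each fit without 1 A498 library (replicate 1, then 2), and ARNT (0.0632) and EPAS1 (0.0550) lost it without A498 replicate 1. Leaving out A498 replicate 1 gave 1 higher and 1 lower calls, A498 replicate 2 1 and 3, and 786-O replicate 3 5 and 3. SETD2-deficient A498 against knockout gave 4 higher and 2 lower of 14 tested, with a median of 0.06.

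Transcripts known to respond to hypoxia-inducible factors were more often lower than higher in A498: of 35 tested, 19 were lower, 3 higher and 13 were not called, and the median was -0.86. VEGFA, the main angiogenic factor of these tumours, was at 56.3 and 57.9 CPM in A498 against 395, 405 and 500.0 CPM in 786-O, a log2 difference of -2.92 (SE 0.20, adjusted p = 0.000424). HK2, the inducible hexokinase, was at 6.22 and 6.54 CPM against 52.7, 48.9 and 36.5 CPM, a log2 difference of -2.83 (SE 0.19, adjusted p = 0.000389). ENO2, a glycolytic enolase, was at 0.541 and 1.05 CPM against 90.7, 90.0 and 67.1 CPM, a log2 difference of -6.67 (SE 0.32, adjusted p = 0.000156). IGFBP3, a binding protein of insulin-like growth factors, was at 809.7 and 775 CPM against 5060.0, 5170.0 and 4392 CPM, a log2 difference of -2.60 (SE 0.15, adjusted p = 0.000250). These were the 4 large decreases of the list. CCND1, encoding cyclin D1, was at 151 and 175 CPM against 622, 647 and 702 CPM, a log2 difference of -2.00 (SE 0.17, adjusted p = 0.000706). SLC2A1, the glucose transporter GLUT1, was at 291 and 325 CPM against 1149, 1153 and 950.5 CPM, a log2 difference of -1.80 (SE 0.15, adjusted p = 0.000683). LDHA, lactate dehydrogenase A, was at 653 and 674 CPM against 1302, 1235 and 1190.0 CPM, a log2 difference of -0.89 (SE 0.13, adjusted p = 0.00396). In each of these 7 genes the A498 libraries lay below all 786-O libraries. LDHA (0.0786 and 0.0710) lost the call, at the adjusted p in brackets, in each fit without 1 A498 library (replicate 1, then 2). Higher and lower calls of the list numbered 2 and 9 without A498 replicate 1, 2 and 9 without A498 replicate 2, and 9 and 24 without 786-O replicate 3. Second-set calls of the list were 10 higher and 11 lower of 37 tested, with a median of -0.16.

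The increases were CXCR4, ALDOC and ANGPTL4. CXCR4, the chemokine receptor linked to spread of renal carcinoma, was at 10.9 and 10.99 CPM in A498 against 0, 0.0393 and 0 CPM in 786-O, 793-fold higher in A498 (counting interval 141 to 31400.0, adjusted p = 0.000270). ALDOC, a brain-type aldolase, was at 22.6 and 26.1 CPM against 1.31, 1.38 and 0.823 CPM, a log2 difference of 4.37 (SE 0.23, adjusted p = 0.000189). Both were also higher in SETD2-deficient A498 than in every knockout library. CA12 (186 and 202 CPM against 159.7, 157 and 130.5 CPM), PGK1 (638 and 657 CPM against 686, 679 and 517 CPM) and PLIN2 (97.8 and 100.0 CPM against 92.0, 83.4 and 108 CPM), which encode a membrane carbonic anhydrase, a glycolytic kinase and a lipid droplet coat, were not called. Of the 22 called genes, 12 were called in the same direction in the second set. IGFBP3 and STC2 changed sides: their log2 differences were -2.60 and -2.09 between the wild types and 0.54 and 1.09 in the second set. VEGFA stayed lower in A498 at -1.16 (adjusted p = 0.00133), and CCND1 at -0.81 (adjusted p = 0.00527). STC2 (0.0725 and 0.0752) lost the call, at the adjusted p in brackets, in each fit without 1 A498 library (replicate 1, then 2).

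**Figure D3:**
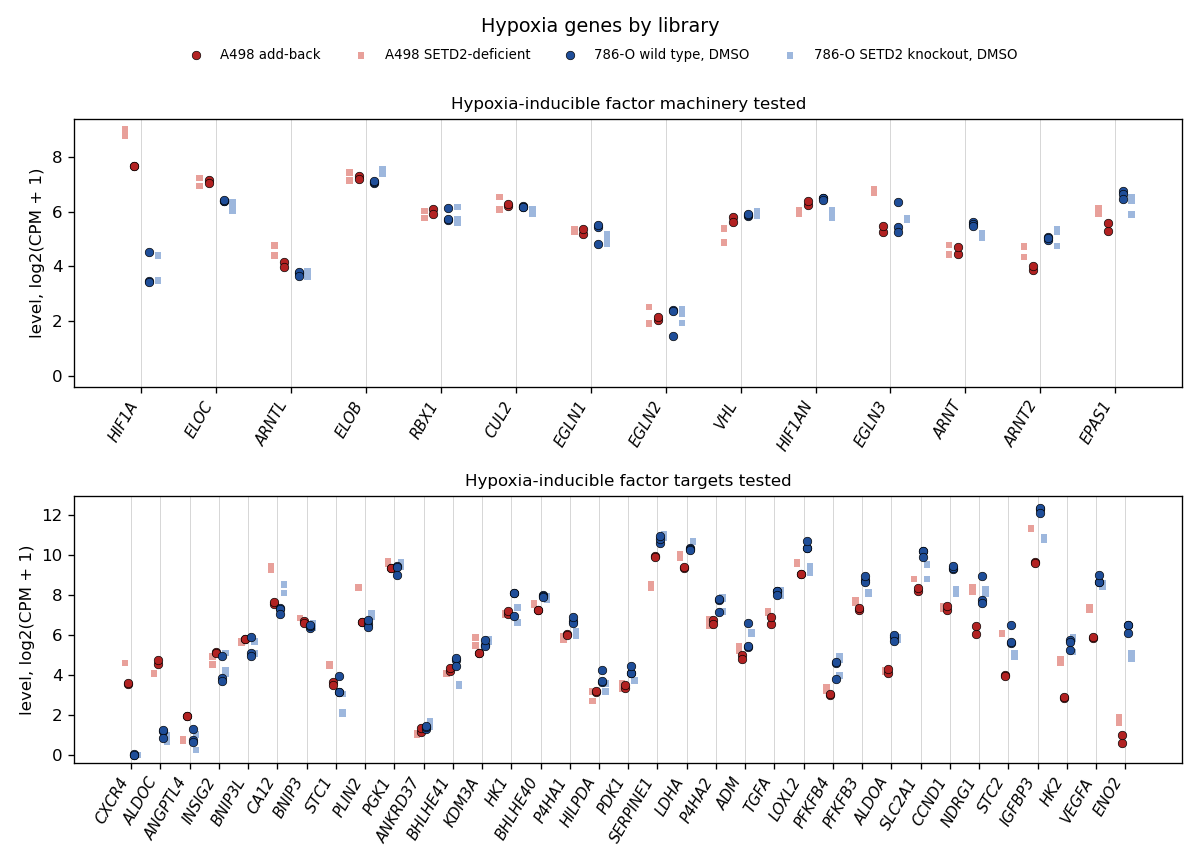
Levels as log2(CPM + 1) of the tested members of the VHL and hypoxia-inducible factor machinery (upper panel) and of their targets (lower panel) in single libraries, drawn with circles for the wild type comparison and squares for the SETD2-deficient one. HIF1A lies far above 786-O in all A498 libraries, while IGFBP3, HK2, VEGFA and ENO2 at the right of the lower panel lie lower in A498 add-back than in wild-type 786-O.

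Among tumour suppressors and oncogenes of renal cancer, 32 were tested, of which 7 were higher, 9 lower and 16 were not called. The 16 called of 32 were a larger share than the 41.0% called of all genes. Large differences were rare, at 1 of the 32 against 11.4% of all genes. That 1 was TERT, the telomerase subunit, at 0.865 and 0.366 CPM in A498 against 10.0, 10.7 and 4.24 CPM in 786-O, a log2 difference of -3.72 (SE 0.58, adjusted p = 0.00507). CDKN1A, the p21 inhibitor of cyclin-dependent kinases, was at 130.1 and 144 CPM against 506, 481 and 486 CPM, a log2 difference of -1.83 (SE 0.14, adjusted p = 0.000529). MDM2, an E3 ubiquitin ligase, was at 114 and 104 CPM against 48.2, 48.7 and 65.4 CPM, a log2 difference of 1.02 (SE 0.20, adjusted p = 0.0115). MDM2 was thus higher, and CDKN1A lower, in A498 than in all 786-O libraries. ARID1A, a chromatin remodeller subunit, was at 47.9 and 61.6 CPM against 193, 208 and 107 CPM, a log2 difference of -1.60 (SE 0.30, adjusted p = 0.00916). MTOR was at 34.2 and 46.3 CPM against 195, 194 and 69.7 CPM, a log2 difference of -1.89 (SE 0.46, adjusted p = 0.0228); it differed by -0.86 against batch 1 and -2.24 against batch 2. PBRM1 (-0.33) and BAP1 (-0.31), which lie near VHL and SETD2 on the short arm of chromosome 3 and are lost in many of these tumours, were not called, nor was the receptor gene MET (0.26). ARID1A (0.111 and 0.0739) and MDM2 (0.0960 and 0.0712) lost the call, at the adjusted p in brackets, in each fit without 1 A498 library (replicate 1, then 2), and TERT (0.0595) lost it without A498 replicate 2. MTOR lost the call in 3 of the 5 fits without 1 library, at an adjusted p of 0.0525 without 786-O replicate 1, 0.184 without A498 replicate 1 and 0.124 without A498 replicate 2. Without A498 replicate 1 the list held 1 higher and 2 lower calls, without A498 replicate 2 1 and 1, and without 786-O replicate 3 8 and 19. Its counts in the second set were 7 higher and 7 lower of 32 tested, with a median of -0.17.

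The chromosome 9 genes CDKN2A and CDKN2B, which encode p16 and p15, were not tested because they were close to silent in both lines. CDKN2B had 0 counts in all 16 libraries. CDKN2A had 2 counts over the 4 A498 libraries and 4 over the 12 786-O libraries. MTAP, their neighbour, was expressed in both lines at 66.0 and 59.8 CPM in A498 against 43.5, 42.7 and 38.4 CPM in 786-O, a log2 difference of 0.61 (SE 0.12, adjusted p = 0.00978). MTAP lost the call in 3 of the 5 fits without 1 library, at an adjusted p of 0.0511 without 786-O replicate 1, 0.124 without A498 replicate 1 and 0.0757 without A498 replicate 2.

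Clear cell carcinoma markers and surface antigens split by gene: of 24 tested, 5 were higher and 11 lower in A498, with a median of -0.88. NPTX2, a pentraxin raised in clear cell tumours, was at 16.7 and 15.8 CPM in A498 against 0, 0 and 0 CPM in 786-O, at least 392-fold higher in A498 (adjusted p = 0.000609). TSPAN7, a tetraspanin, was at 2.49 and 2.67 CPM against 0, 0 and 0 CPM, at least 62.3-fold higher in A498 (adjusted p = 0.00230), and the bile acid-binding FABP6 at 6.92 and 6.17 CPM against 0.735, 0.354 and 0.316 CPM, a log2 difference of 3.76 (SE 0.39, adjusted p = 0.00134). These 3 were the large increases, and they were also called higher in the second set. MCAM, the adhesion molecule CD146, was at 6.22 and 4.97 CPM against 115, 119 and 88.5 CPM, a log2 difference of -4.25 (SE 0.20, adjusted p = 0.000159), but differed by only -0.37 in the second set, where it was not called. IGFBP1 was at 0 and 0 CPM against 9.52, 12 and 3.48 CPM, at least 104-fold lower in A498 (adjusted p = 0.00419). CD70, an antigen of clear cell tumours, was at 232 and 248 CPM against 525, 544 and 514 CPM, a log2 difference of -1.12 (SE 0.13, adjusted p = 0.00176). CD274, which encodes PD-L1, was at 2.22 and 1.78 CPM against 9.94, 13.2 and 7.09 CPM, a log2 difference of -2.31 (SE 0.32, adjusted p = 0.00332). VIM, the intermediate filament vimentin, was at 2195 and 2180.0 CPM against 7189, 7464 and 4261 CPM, a log2 difference of -1.50 (SE 0.26, adjusted p = 0.00664). In the second set CD274 was called lower (-1.11), while CD70 (-0.19), VIM (-0.44) and IGFBP1, at 4.90 and 0 CPM in SETD2-deficient A498 against 1.38, 1.27 and 1.25 CPM, were not called. SPP1 (708 and 682 CPM against 474, 422 and 1015 CPM) and AXL (248 and 265 CPM against 621, 671 and 267 CPM) were not called. VIM (0.0874 and 0.0870) lost the call, at the adjusted p in brackets, in each fit without 1 A498 library (replicate 1, then 2), and CD274 (0.0539) lost it without A498 replicate 2. Leaving out A498 replicate 1 gave 3 higher and 7 lower calls, A498 replicate 2 3 and 6, and 786-O replicate 3 6 and 17. SETD2-deficient A498 against knockout gave 10 higher and 7 lower of 27 tested, with a median of 0.03.

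Receptor tyrosine kinases included several that were on in 1 line and nearly off in the other. Of 27 tested, 9 were higher and 7 lower in A498, and 7 higher and 2 lower were large. EPHB4, an ephrin receptor, was at 116 and 119 CPM in A498 against 1.89, 2.01 and 1.58 CPM in 786-O, a log2 difference of 6.01 (SE 0.14, adjusted p = 6.45e-05). INSR, the insulin receptor, was at 9.41 and 9.99 CPM against 0, 0 and 0 CPM, at least 235-fold higher in A498 (adjusted p = 0.000893). MST1R, the macrophage-stimulating protein receptor RON, was at 6.49 and 7.38 CPM against 0.831, 0.826 and 0.190 CPM, a log2 difference of 3.44 (SE 0.48, adjusted p = 0.00363), and ERBB3 at 2.11 and 2.15 CPM against 0.192, 0.118 and 0.0633 CPM, a log2 difference of 3.96 (SE 0.41, adjusted p = 0.00137). ROR2, a Wnt5a receptor, ran the other way at 0.270 and 0.314 CPM against 38.1, 37.2 and 51.0 CPM, a log2 difference of -7.13 (SE 0.34, adjusted p = 0.000159). EGFR was abundant in both, at 212 and 249.4 CPM against 604, 626 and 581 CPM, a log2 difference of -1.37 (SE 0.14, adjusted p = 0.00129). The A498 libraries were apart from 786-O in each of these 6 genes, and all 6 were called in the same direction in the second set. The angiopoietin receptor TEK, the 1 tested endothelial marker, was at 1.62 and 0.942 CPM against 0.0639, 0.0787 and 0 CPM, and the ephrin receptor EPHA3 at 0.811 and 1.41 CPM against 0, 0 and 0 CPM. EPHA3 (0.0674 and 0.0922) lost the call, at the adjusted p in brackets, in each fit without 1 A498 library (replicate 1, then 2), and TEK (0.0648) lost it without A498 replicate 1. Higher and lower calls of the list numbered 4 and 4 without A498 replicate 1, 5 and 4 without A498 replicate 2, and 13 and 9 without 786-O replicate 3. Second-set calls of the list were 7 higher and 9 lower of 27 tested, with a median of 0.28.

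Epithelial genes did not move as 1 group: of 34 tested, 13 were higher, 11 lower and 10 were not called, with a median of 0.09. KRT19 was at 7.30 and 6.80 CPM in A498 against 205, 208 and 211 CPM in 786-O, a log2 difference of -4.87 (SE 0.16, adjusted p = 9.97e-05). SPINT2, a membrane protease inhibitor, was at 1.19 and 1.47 CPM against 59.8, 60.4 and 65.2 CPM, a log2 difference of -5.52 (SE 0.20, adjusted p = 0.000104), and CLDN2, the leaky claudin of the proximal tubule, at 0.216 and 0.419 CPM against 28.5, 25.3 and 15.3 CPM, a log2 difference of -6.13 (SE 0.44, adjusted p = 0.000455). All 3 were lower in A498 in both sets of libraries. OCLN, the tight junction protein occludin, was at 3.19 and 3.66 CPM against 0.192, 0.0393 and 0.0633 CPM, a log2 difference of 4.95 (SE 0.53, adjusted p = 0.00146). DSP, which anchors keratin at desmosomes, was at 45.7 and 53.0 CPM against 2.27, 2.67 and 0.253 CPM, a log2 difference of 4.78 (SE 0.63, adjusted p = 0.00286). The DSP difference was only 0.62 in the second set (adjusted p = 0.0451). CDH1, encoding E-cadherin, stayed at or under about 1 CPM in both lines, at 0.649 and 1.05 CPM against 0, 0.0393 and 0.0633 CPM. KRT8 (994 and 1017 CPM against 1070.0, 1108 and 686 CPM) and KRT18 (379.9 and 366 CPM against 285, 295 and 150.5 CPM), the keratins of simple epithelium, were abundant in both and were not called. CDH1 (0.0541) lost the call, at the adjusted p in brackets, without A498 replicate 1. Without A498 replicate 1 the list held 5 higher and 7 lower calls, without A498 replicate 2 6 and 6, and without 786-O replicate 3 14 and 16. Its counts in the second set were 8 higher and 10 lower of 30 tested, with a median of 0.07.

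Mesenchymal genes also split, into 10 higher, 12 lower and 11 not called of 33 tested (median -0.24). COL5A1, a fibrillar collagen, was at 627 and 608 CPM in A498 against 0.575, 0.315 and 0.570 CPM in 786-O, a log2 difference of 10.32 (SE 0.28, adjusted p = 6.45e-05). POSTN, the matrix protein periostin, was at 83.1 and 78.1 CPM against 0.0639, 0.118 and 0.0633 CPM, a log2 difference of 9.86 (SE 0.22, adjusted p = 6.45e-05). COL12A1, a fibril-associated collagen, was at 39.97 and 42.0 CPM against 1.44, 1.93 and 0.506 CPM, a log2 difference of 4.95 (SE 0.41, adjusted p = 0.000669). The COL12A1 difference was only 1.03 in the second set (adjusted p = 0.00788). FN1, fibronectin, was at 174 and 184 CPM against 5485, 5367 and 1959 CPM, a log2 difference of -4.55 (SE 0.52, adjusted p = 0.00182), which was -3.51 against batch 1 and -4.88 against batch 2. MMP2, a gelatinase, was at 0.270 and 0.157 CPM against 7.57, 7.51 and 11.52 CPM, a log2 difference of -5.33 (SE 0.46, adjusted p = 0.000784). LOXL1, which crosslinks elastin, was at 0.487 and 0.889 CPM against 20.9, 21.2 and 12.6 CPM, a log2 difference of -4.69 (SE 0.39, adjusted p = 0.000683), and LUM, the collagen-binding lumican, at 0.108 and 0 CPM against 5.02, 4.17 and 8.80 CPM, 104-fold lower in A498 (counting interval 28.7 to 863, adjusted p = 0.00282). COL5A1, COL12A1 and POSTN were thus higher in A498 and FN1 lower. The other listed collagen genes were called in both directions or not called, COL5A2 among the latter. MMP2 took the opposite sign in the second set (3.50), where 786-O knockout libraries held 0.0601, 0.0976 and 0 CPM. CDH2 (-0.40), ZEB1 (0.12) and SPARC (-0.24), classical mesenchymal genes, were not called. Leaving out A498 replicate 1 gave 7 higher and 5 lower calls, A498 replicate 2 7 and 6, and 786-O replicate 3 16 and 17. SETD2-deficient A498 against knockout gave 12 higher and 9 lower of 34 tested, with a median of 0.39.

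HOX genes record position along the body axis by their clusters. Of 33 tested, 5 were higher and 9 lower in A498 and 19 were not called, so 42.4% were called against 41.0% of all genes. The 4 large increases were HOXC13, HOXD13, HOXA11 and HOXA7. HOXC13 was at 19.6 and 21.4 CPM in A498 against 0, 0 and 0 CPM in 786-O, at least 496-fold higher in A498 (adjusted p = 0.000528). HOXD13 was at 1.62 and 1.94 CPM against 0, 0 and 0 CPM, at least 43.0-fold higher in A498 (adjusted p = 0.00326). HOXA7 was at 19.9 and 18.5 CPM against 4.03, 3.97 and 3.10 CPM, a log2 difference of 2.38 (SE 0.17, adjusted p = 0.000466). The 1 large decrease was HOXB8, at 2.81 and 2.67 CPM against 12.2, 11.8 and 12.3 CPM, a log2 difference of -2.12 (SE 0.18, adjusted p = 0.000806). HOXA9, at 82.1 and 72.5 CPM against 96.7, 100.0 and 121 CPM, was not called, and HOXA10, at 105 and 101 CPM against 77.8, 75.9 and 69.5 CPM, differed by 0.48. Of the 14 called HOX genes, 12 were called in the same direction in the second set. HOXD13 (0.0559 and 0.0620) lost the call, at the adjusted p in brackets, in each fit without 1 A498 library (replicate 1, then 2). HOXA10 lost the call in 4 of the 5 fits without 1 library, at an adjusted p of 0.0901 without 786-O replicate 1, 0.0891 without 786-O replicate 2, 0.180 without A498 replicate 1 and 0.136 without A498 replicate 2. Higher and lower calls of the list numbered 3 and 2 without A498 replicate 1, 3 and 2 without A498 replicate 2, and 8 and 15 without 786-O replicate 3. Second-set calls of the list were 5 higher and 10 lower of 34 tested, with a median of -0.25.

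Genes of neuronal and other lineages were frequent among the large differences, with 9 higher and 5 lower of 20 tested, 18 of which were called; this list was drawn up with such genes already seen in these data, so its count is a description. NEFM, the medium neurofilament chain, was at 51.3 and 44.0 CPM in A498 against 0, 0 and 0 CPM in 786-O, at least 1150.0-fold higher in A498 (adjusted p = 0.000362). CNTNAP2, a neurexin family protein, was at 27.8 and 31.8 CPM against 0, 0.0393 and 0.0633 CPM, 1080.0-fold higher in A498 (counting interval 299 to 8940.0, adjusted p = 0.000133). SOX9, a factor of nephron repair and cartilage, was at 34.0 and 32.3 CPM against 5.27, 6.06 and 2.02 CPM, a log2 difference of 2.90 (SE 0.39, adjusted p = 0.00319). NRXN3, a presynaptic neurexin, ran the other way at 0.0541 and 0 CPM against 28.1, 29.6 and 47.3 CPM, 1230.0-fold lower in A498 (counting interval 221 to 48800.0, adjusted p = 0.000403), and the contactin CNTN1 at 0.108 and 0.0523 CPM against 4.06, 3.58 and 5.76 CPM, 53.4-fold lower in A498 (counting interval 18.1 to 260.0, adjusted p = 0.00102). NEFM and CNTNAP2 were thus higher in A498 and NRXN3 and CNTN1 higher in 786-O, in both sets of libraries. The log2 difference of NRXN3 was -10.08 between the wild types and -3.28 in the second set. Cancer-testis antigens contributed little: 2 of the 33 found in the files passed the filter. PRAME was at 129 and 125 CPM against 51.0, 52.7 and 43.5 CPM, a log2 difference of 1.39 (SE 0.12, adjusted p = 0.000770). Without A498 replicate 1 the neuronal and other lineage list held 7 higher and 6 lower calls, without A498 replicate 2 7 and 6, and without 786-O replicate 3 10 and 10. Its counts in the second set were 9 higher and 6 lower of 20 tested, with a median of -0.01.

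Detoxification genes had the highest median of the lists with 11 or more tested genes, at 1.57, against -0.05 over all genes: of 31 tested, 16 were higher and 5 lower in A498, 10 and 2 of them large. Many are known targets of the stress-responsive factor NRF2 (NFE2L2), which binds antioxidant response elements with the core TGACNNNGC. To show how this core lies in the listed genes, the 250 bases before the annotated RefSeq start were read from GRCh38.p14 for the members with a match by symbol, and those of 4 genes are printed 5′ to 3′ on the gene's strand, with the core in capitals (GCNNNGTCA where it lies on the opposite strand). GCLM and TXNRD1, the latter printed at 2 annotated starts, and GSTM1 were higher in A498, and GSTP1 lower. Only windows that held the core are printed, so other annotated starts of these genes may lack it.

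GCLM, chr1:93909431-93909680, minus strand: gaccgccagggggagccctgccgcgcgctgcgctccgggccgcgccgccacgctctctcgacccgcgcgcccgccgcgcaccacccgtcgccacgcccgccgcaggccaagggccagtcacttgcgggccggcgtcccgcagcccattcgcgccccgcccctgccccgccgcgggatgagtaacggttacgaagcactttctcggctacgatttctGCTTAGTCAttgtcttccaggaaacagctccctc
TXNRD1, chr12:104215529-104215778, plus strand: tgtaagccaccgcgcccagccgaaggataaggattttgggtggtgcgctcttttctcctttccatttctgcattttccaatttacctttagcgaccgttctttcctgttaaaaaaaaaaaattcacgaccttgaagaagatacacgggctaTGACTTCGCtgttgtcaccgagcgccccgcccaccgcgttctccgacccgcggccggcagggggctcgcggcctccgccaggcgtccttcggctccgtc
TXNRD1, chr12:104286782-104287031, plus strand: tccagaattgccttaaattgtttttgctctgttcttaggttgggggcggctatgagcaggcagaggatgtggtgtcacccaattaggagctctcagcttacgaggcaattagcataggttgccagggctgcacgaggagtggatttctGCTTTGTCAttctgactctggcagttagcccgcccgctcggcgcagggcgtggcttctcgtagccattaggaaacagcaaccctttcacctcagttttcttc
GSTM1, chr1:109687567-109687816, plus strand: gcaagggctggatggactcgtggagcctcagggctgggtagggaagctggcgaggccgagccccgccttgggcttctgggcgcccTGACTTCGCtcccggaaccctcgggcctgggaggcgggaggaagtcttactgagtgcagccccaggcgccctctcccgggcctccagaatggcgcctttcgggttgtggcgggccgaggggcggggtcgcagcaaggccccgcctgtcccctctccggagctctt
GSTP1, chr11:67583562-67583811, plus strand: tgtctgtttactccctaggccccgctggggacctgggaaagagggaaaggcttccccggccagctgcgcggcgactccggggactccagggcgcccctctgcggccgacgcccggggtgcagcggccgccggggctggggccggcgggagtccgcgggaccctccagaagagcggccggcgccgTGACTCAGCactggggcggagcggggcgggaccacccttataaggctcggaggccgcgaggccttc

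The core began 34 bases before the start in GCLM, 99 and 102 in TXNRD1, 165 in GSTM1 and 66 in GSTP1. It was present on either strand in 4 of 13 matched genes that were higher in A498 (30.8%), in 3 of 4 that were lower (75.0%) and in 1 of 8 that were not called (12.5%). Over all promoters of the table the share was 13.2% of 27305 genes, and 15.9% of the 11400 tested genes with a match. A match of these letters is not a measured site, and NQO1, AKR1C1, AKR1C2 and AKR1C3 had none in this window.

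AKR1B10, an aldo-keto reductase, was at 547 and 586 CPM in A498 against 3.67, 3.15 and 2.47 CPM in 786-O, a log2 difference of 7.52 (SE 0.20, adjusted p = 6.45e-05). AKR1C1, of the same family, was at 183 and 177 CPM against 1.18, 1.42 and 5.00 CPM, a log2 difference of 6.24 (SE 0.66, adjusted p = 0.00147); AKR1C1 and AKR1C2 are nearly identical, so how reads were split between them is uncertain. ABCC2, an export pump of conjugated drugs, was at 132 and 123 CPM against 1.82, 2.71 and 1.90 CPM, a log2 difference of 5.91 (SE 0.20, adjusted p = 0.000104). NQO1, a quinone reductase, was at 619 and 612 CPM against 208, 203 and 195 CPM, a log2 difference of 1.62 (SE 0.12, adjusted p = 0.000474). TXNRD1, thioredoxin reductase, was at 1380.0 and 1499 CPM against 499, 489 and 440.2 CPM, a log2 difference of 1.61 (SE 0.13, adjusted p = 0.000588). GCLM, a subunit of the enzyme that limits glutathione synthesis, was at 252 and 260.2 CPM against 104, 98.0 and 61.2 CPM, a log2 difference of 1.57 (SE 0.22, adjusted p = 0.00355), and SLC7A11, the cystine importer, at 151 and 156 CPM against 34.1, 31.6 and 45.1 CPM, a log2 difference of 2.06 (SE 0.21, adjusted p = 0.00130). HMOX1, haem oxygenase, was at 142 and 141 CPM against 33.2, 34.2 and 19.5 CPM, a log2 difference of 2.31 (SE 0.23, adjusted p = 0.00121). In these 8 genes A498 lay above all 786-O libraries in both sets, with second-set differences of 2.55 for NQO1, 2.68 for GCLM and 3.73 for HMOX1. NFE2L2 itself was higher by 0.70 (SE 0.20, adjusted p = 0.0363), and KEAP1, its repressor, was not called (-0.08). NFE2L2 lost the call in 4 of the 5 fits without 1 library, at an adjusted p of 0.108 without 786-O replicate 1, 0.0859 without 786-O replicate 2, 0.172 without A498 replicate 1 and 0.174 without A498 replicate 2. Leaving out A498 replicate 1 gave 13 higher and 2 lower calls, A498 replicate 2 12 and 2, and 786-O replicate 3 22 and 7. SETD2-deficient A498 against knockout gave 19 higher and 4 lower of 34 tested, with a median of 1.46.

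Glutathione transferases, which conjugate glutathione to drugs and toxins, did not share 1 direction. GSTP1, at chr11:67583742-67586656, was at 0 and 0 CPM in A498 against 531, 564 and 451 CPM in 786-O, at least 6460.0-fold lower in A498 (adjusted p = 0.000104). Across all 16 libraries it had 0 counts in the 4 of A498 and 126.5 to 563.7 CPM in the 12 of 786-O, and the lines were apart in both 786-O batches, both SETD2 states and both treatments of 786-O. GSTM1 showed the reverse, at 20.1 and 18.4 CPM against 0, 0 and 0 CPM, at least 466-fold higher in A498 (adjusted p = 0.000554). GSTM1 has close relatives in the same cluster and is deleted in many genomes; whether the gene is present in 786-O cannot be read from transcript counts. UGT1A6, a glucuronosyltransferase whose exons are shared with other UGT1A genes, was at 0.0541 and 0 CPM against 110.1, 96.1 and 145 CPM, 4240.0-fold lower in A498 (counting interval 761 to 167000.0, adjusted p = 0.000162). ALDH1A1, an aldehyde dehydrogenase, overlapped between the lines at 1722 and 1659 CPM against 561, 481 and 3662 CPM with 786-O replicate 3 (batch 1) far above replicates 1 and 2, and was not called.

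**Figure D4:**
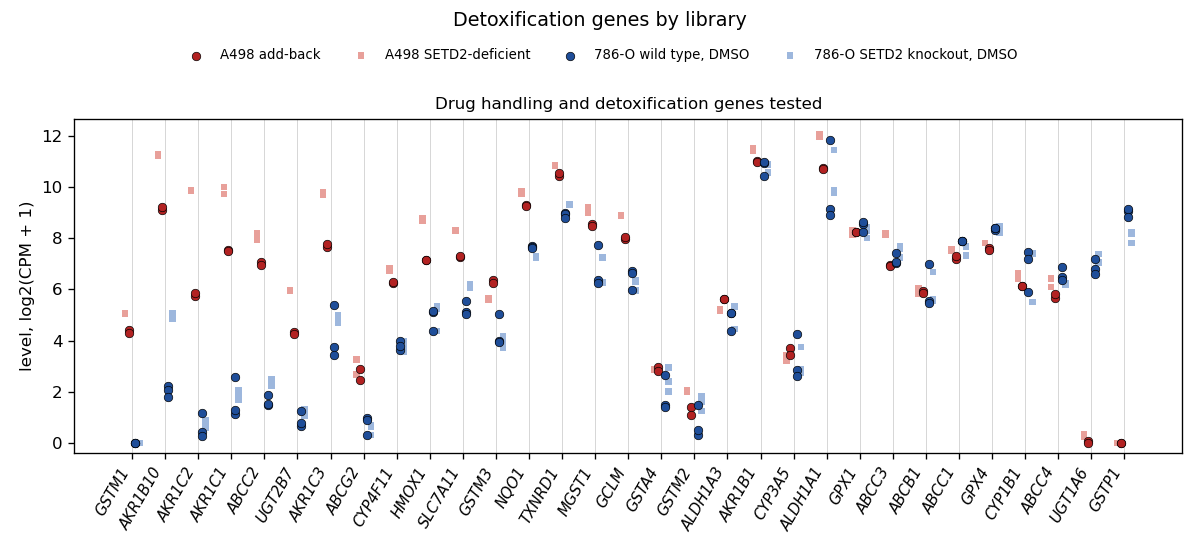
Levels as log2(CPM + 1) of the 31 tested detoxification genes in single libraries, ordered by the A498 minus 786-O difference, with circles for the wild type comparison and squares for the SETD2-deficient one. GSTM1, AKR1B10 and ABCC2 at the left are far higher in A498, UGT1A6 and GSTP1 at the right are at or near 0 in A498, and ALDH1A1 shows the wide spread among 786-O libraries.

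Lipid and glycogen genes, which underlie the clear cytoplasm of these tumours, were lower more often than higher: 14 lower and 7 higher of 38 tested, with a median of -0.43. FADS2, a fatty acid desaturase, was at 10.9 and 11.3 CPM in A498 against 581, 560.0 and 525 CPM in 786-O, a log2 difference of -5.62 (SE 0.16, adjusted p = 6.45e-05). SCD, the stearoyl-CoA desaturase, was at 124 and 134 CPM against 566, 506 and 995 CPM, a log2 difference of -2.42 (SE 0.38, adjusted p = 0.00525). FADS1 was at 43.4 and 44.0 CPM against 239.6, 226 and 178 CPM, a log2 difference of -2.28 (SE 0.16, adjusted p = 0.000437). LIPE, hormone-sensitive lipase, was at 0 and 0 CPM against 4.67, 5.19 and 1.52 CPM, at least 47.5-fold lower in A498 (adjusted p = 0.00600). These were 4 of the 5 large decreases. GYG2, a glycogenin that primes glycogen, was at 23.2 and 27.7 CPM against 0, 0 and 0.0633 CPM, 1850.0-fold higher in A498 (counting interval 331 to 73100.0, adjusted p = 0.000179), and PLIN4, a lipid droplet coat protein, at 6.11 and 5.18 CPM against 0.0319, 0.0393 and 0 CPM, 204-fold higher in A498 (counting interval 55.9 to 1700.0, adjusted p = 0.000316). In the second set FADS2 (-2.75) and FADS1 (-1.31) were called lower again, while SCD (-0.37) was not called. SCD (0.0682 and 0.0624) lost the call, at the adjusted p in brackets, in each fit without 1 A498 library (replicate 1, then 2). Higher and lower calls of the list numbered 3 and 4 without A498 replicate 1, 3 and 4 without A498 replicate 2, and 10 and 21 without 786-O replicate 3. Second-set calls of the list were 11 higher and 14 lower of 38 tested, with a median of -0.08.

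Of 23 inflammatory and acute-phase genes tested, 6 were higher and 7 lower in A498, with a median of -0.31. The complement proteases C1S, at 209 and 193 CPM in A498 against 0.991, 1.46 and 5.19 CPM in 786-O with a log2 difference of 6.40 (SE 0.72, adjusted p = 0.00178), and C1R, at 41.4 and 37.6 CPM against 0.991, 0.787 and 1.65 CPM with a log2 difference of 5.17 (SE 0.33, adjusted p = 0.000323), were higher. So was CCL2, the monocyte chemokine, at 74.8 and 73.2 CPM against 2.49, 4.01 and 1.58 CPM, a log2 difference of 4.78 (SE 0.33, adjusted p = 0.000400). The neutrophil chemokine CXCL5 ran the other way at 0 and 0 CPM against 32.9, 42.4 and 5.06 CPM, at least 335-fold lower in A498 (adjusted p = 0.0119), and its 786-O level varied strongly with batch. SERPINA1, α1-antitrypsin, was at 6.76 and 7.43 CPM against 81.9, 82.1 and 50.2 CPM, a log2 difference of -3.31 (SE 0.25, adjusted p = 0.000561). CXCL8 was at 0.811 and 0.942 CPM against 8.53, 12.4 and 2.34 CPM, a log2 difference of -3.11 (SE 0.74, adjusted p = 0.0206), but the sign was opposite in the second set (1.19). CXCL8 (0.158 and 0.140) and CXCL5 (0.0701 and 0.0702) lost the call, at the adjusted p in brackets, in each fit without 1 A498 library (replicate 1, then 2). Without A498 replicate 1 the list held 3 higher and 3 lower calls, without A498 replicate 2 3 and 2, and without 786-O replicate 3 8 and 12. Its counts in the second set were 12 higher and 5 lower of 24 tested, with a median of 1.04.

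All 41 interferon-stimulated genes listed were tested. Of these, 14 were lower, 1 was higher and 26 were not called, with a median of -0.21. The called share was 36.6%, against 41.0% of all genes. IFI27 was at 5.57 and 6.54 CPM in A498 against 32.3, 30.5 and 31.9 CPM in 786-O, a log2 difference of -2.37 (SE 0.16, adjusted p = 0.000393), and MX2, an antiviral GTPase, at 0.0541 and 0.105 CPM against 2.81, 2.12 and 2.02 CPM, 30.1-fold lower in A498 (counting interval 10.1 to 147, adjusted p = 0.00111). ISG15, a ubiquitin-like modifier, was at 22.5 and 19.6 CPM against 106, 109.5 and 45.8 CPM, a log2 difference of -2.02 (SE 0.39, adjusted p = 0.00985). These 3 were lower in A498 in every library compared. In the pathway that senses cytosolic DNA, STING1 was lower (31.1 and 32.2 CPM against 60.1, 57.5 and 71.3 CPM, a log2 difference of -0.98 (SE 0.17, adjusted p = 0.00723)) and CGAS was not called (0.28). Of the 15 called genes, 12 were called in the same direction in the second set. STING1 (0.0844 and 0.0768) and ISG15 (0.0922 and 0.107) lost the call, at the adjusted p in brackets, in each fit without 1 A498 library (replicate 1, then 2). Leaving out A498 replicate 1 gave 0 higher and 6 lower calls, A498 replicate 2 0 and 5, and 786-O replicate 3 8 and 20. SETD2-deficient A498 against knockout gave 11 higher and 14 lower of 41 tested, with a median of -0.25.

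In the BCL-2 family, which contains the target of A1331852, 0 of 15 tested genes were higher and 5 were lower in A498, 1 of them large. The called share was 33.3%, against 41.0% of all genes. BCL2L1, which encodes BCL-xL, was at 217 and 247 CPM in A498 against 329, 354 and 269.9 CPM in 786-O, ranges that did not overlap, and missed the threshold (a log2 difference of -0.43 (SE 0.15, adjusted p = 0.0637)). The survival gene MCL1 was at 149.8 and 146 CPM against 252, 259 and 255 CPM, a log2 difference of -0.77 (SE 0.12, adjusted p = 0.00545), and BCL2 at 9.30 and 8.58 CPM against 21.6, 21.0 and 25.2 CPM, a log2 difference of -1.33 (SE 0.18, adjusted p = 0.00343). BMF, a BH3-only activator of cell death, was the large decrease, at 2.65 and 3.66 CPM against 16.2, 13.3 and 22.2 CPM, a log2 difference of -2.44 (SE 0.34, adjusted p = 0.00342). PMAIP1, the BH3-only gene NOXA, was at 11.8 and 10.46 CPM against 27.2, 30.2 and 29.6 CPM, a log2 difference of -1.36 (SE 0.15, adjusted p = 0.00168). The effectors BAX (0.13) and BAK1 (-0.12) were not called. MCL1 (0.0824 and 0.0892) lost the call, at the adjusted p in brackets, in each fit without 1 A498 library (replicate 1, then 2), and BCL2 (0.0518) lost it without A498 replicate 2. In the second set 3 of the 5 were called lower again; MCL1 (-0.19) and PMAIP1 (0.02) were not. Higher and lower calls of the list numbered 0 and 3 without A498 replicate 1, 0 and 2 without A498 replicate 2, and 3 and 11 without 786-O replicate 3. Second-set calls of the list were 0 higher and 5 lower of 14 tested, with a median of -0.35.

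Few cell cycle genes were called, 17.1% against 41.0% of all genes: 29 of 35 tested were not called, 0 were large, and the median was -0.11. CCNE1, which encodes cyclin E1, was at 36.9 and 39.1 CPM in A498 against 10.7, 11.1 and 11.3 CPM in 786-O, a log2 difference of 1.80 (SE 0.13, adjusted p = 0.000479). CDK6, the partner of D cyclins, was at 67.7 and 75.7 CPM against 208, 227 and 139 CPM, a log2 difference of -1.39 (SE 0.22, adjusted p = 0.00496). CCNE1 was thus higher in A498 and CCND1 and CDK6 lower, in both sets. MKI67, the proliferation marker, was at 212 and 239 CPM against 845, 875 and 268 CPM, lower in A498 than in each 786-O library but with replicate 3 far under replicates 1 and 2, and was not called. CDK6 (0.0798 and 0.0644) lost the call, at the adjusted p in brackets, in each fit without 1 A498 library (replicate 1, then 2). Without A498 replicate 1 the list held 1 higher and 1 lower calls, without A498 replicate 2 1 and 1, and without 786-O replicate 3 8 and 20. Its counts in the second set were 8 higher and 2 lower of 35 tested, with a median of -0.05.

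Across all genes, the 12 largest increases among protein-coding genes at 20 CPM or more all had 0 counts in the 3 wild-type 786-O libraries. ADD2, a membrane skeleton adducin, was the largest at 72.3 and 86.2 CPM in A498 against 0, 0 and 0 CPM in 786-O, at least 1920.0-fold higher in A498 (adjusted p = 0.000308). TDRD9, a germline RNA helicase, was at 65.9 and 57.0 CPM against 0, 0 and 0 CPM, at least 1490.0-fold higher in A498 (adjusted p = 0.000316). LRP3, PDZD4, TP53I11, NEFM, HACD4, HMX1, SELENBP1, SLC22A3, KCTD15 and PTPRN followed, each at least 1050-fold higher. All 12 were also higher in SETD2-deficient A498 than in every knockout library. SELENBP1, a selenium-binding protein of differentiated epithelium, was at 47.4 and 42.1 CPM against 0, 0 and 0 CPM, and SLC22A3, an organic cation transporter, at 46.1 and 41.6 CPM against 0, 0 and 0 CPM.

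The largest decreases were GSTP1, SLC17A9, MT1E, NNT, FLG, BHMT2, UGT1A8, BTG3, MYEF2, TENM4, EREG and BASP1. NNT, which makes NADPH in mitochondria, was at 0 and 0 CPM in A498 against 159, 147 and 127 CPM in 786-O, at least 1810.0-fold lower in A498 (adjusted p = 0.000110). SLC17A9, a vesicular nucleotide transporter, was at 0 and 0 CPM against 216, 237 and 129 CPM, at least 2430.0-fold lower in A498 (adjusted p = 0.000350). MT1E, a metallothionein with near-identical relatives, was at 0 and 0 CPM against 198, 204 and 167 CPM, at least 2380.0-fold lower in A498 (adjusted p = 0.000108). EREG, a ligand of EGFR, was at 0 and 0 CPM against 61.9, 74.0 and 6.58 CPM, at least 595-fold lower in A498 (adjusted p = 0.0147). BASP1, a membrane and nuclear protein, was at 0 and 0.0523 CPM against 294, 335 and 173 CPM, 10600.0-fold lower in A498 (counting interval 1900.0 to 419000.0, adjusted p = 0.000167), and the homocysteine methyltransferase BHMT2 at 0 and 0 CPM against 73.3, 69.1 and 91.4 CPM, at least 977-fold lower in A498 (adjusted p = 0.000241). Of the decreases named here, only GSTP1 and MT1E had 0 counts in every A498 library, SETD2-deficient ones included. The others were thus not silent in the whole line. For example, SETD2-deficient A498 held 75.9 and 65.4 CPM of BASP1 and 42.9 and 37.9 CPM of BHMT2. EREG (0.0801 and 0.0803) lost the call, at the adjusted p in brackets, in each fit without 1 A498 library (replicate 1, then 2).

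Requiring 0 counts in every library of a line and an average of 20 CPM or more in the other line's group compared left 7 genes silent in A498, namely GYPC, CAMK1, CXCL5, FBXL7, GSTP1, ARPIN and MT1E. Silent in all 12 786-O libraries were 11, among them SELENBP1, SOX11, PTPRN, RPL39L, HMX1, NEFM, TRIM32, LHX2, TDRD9 and LRP3. In only the 5 libraries compared the numbers were 19 and 23. The promoter windows of the genes that matched had a median of 22 CpG dinucleotides in 250 bases for those silent in A498 (6 genes) and 31 for those silent in 786-O (6 genes), against 23 over the tested genes.

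Differences also ran along chromosomes. The median log2 difference was highest on chromosome 8 (0.49), 17 (0.41) and 7 (0.36) and lowest on 6 (-0.44), 18 (-0.39) and 10 (-0.36). On chromosome 8, 237 of 596 tested genes were higher and 62 lower in A498, and on chromosome 6, 82 of 783 were higher and 259 lower. In the second set chromosomes 8 (0.64), 17 (0.37), 6 (-0.53) and 18 (-0.29) kept these sides, while 7 (0.06) and 10 (0.01) were near 0. DNA copy number was not measured here.

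The 10 listed genes that took opposite called directions in the 2 sets of libraries were EGF, IGFBP3, STC2, SETD2, CP, EPHA3, SNAI2, MMP2, CXCL8 and IFIT3. They were picked without a size threshold and were also called for the difference between the sets. Large differences over all genes are another set: of 1617 tested in both, 1452 were called in the same direction and 25 in the opposite one. Across the 15516 genes tested in both sets, which share lines and batches but no library, the log2 differences had Pearson's r = 0.867 and Spearman's rho = 0.753; this is a description across genes, which are not independent replicates.

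**Figure D5:**
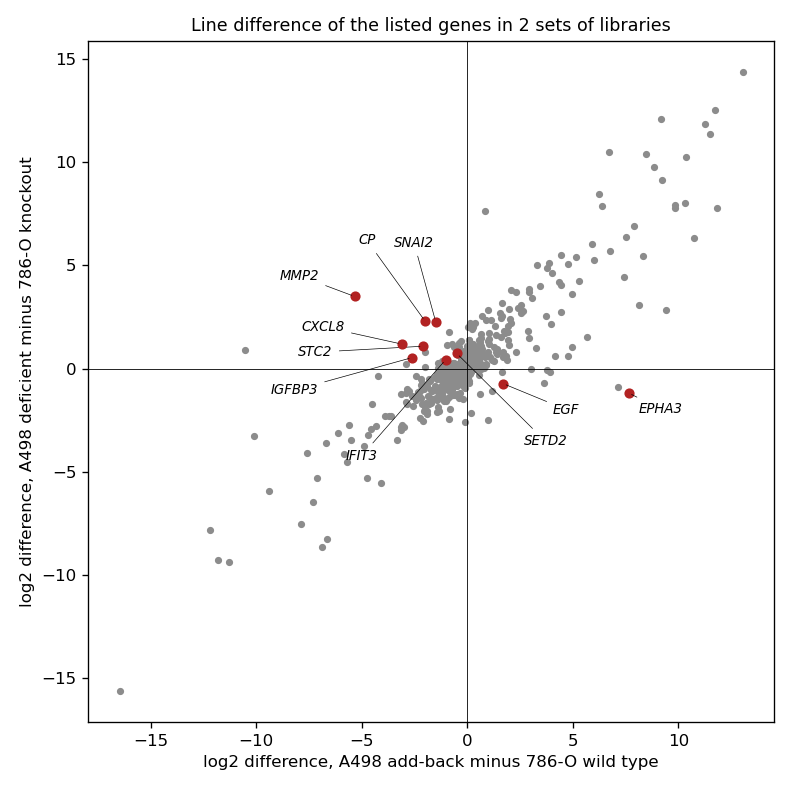
Each of 471 listed genes tested in both sets is placed by its log2 difference of A498 add-back minus 786-O wild type (horizontal axis) and of SETD2-deficient A498 minus 786-O knockout (vertical axis). The points follow the diagonal, and the 10 red, named genes lie in the quadrants of opposite sign, with EPHA3 at the lower right and MMP2 at the upper left.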

How the data were processed

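The authors deposited 1 table of exon read counts per library; per the file headers the counts were made with featureCounts 1.5.0-p3 with the strand setting 2, and per the submitters' processing notes STAR, MultiQC 1.7 and DESeq2 were also used, with GRCh38 (hg38). Counts per gene were taken as deposited, whole and without normalization. The kit, per the labels' protocols, was NEBNext Ultra II with poly-A selection and paired-end reads. Groups came from the labels.

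The line difference was fitted on 5 libraries with edgeR 4.0.16 (R 4.3.3): filterByExpr (minimum count 10), TMM, glmQLFit and glmQLFTest, Benjamini-Hochberg over 16145 genes. Batch 3 coincides with A498, so no batch term was possible. Differences against single batches used log2 CPM with a prior count of 2. Fitted log2 values of genes near 0 counts depend on that kind of prior, so bounds against 3 counts were used there. A simulated data set with known changes was tested with the same code.

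The members and gene lists were chosen with earlier results of these data known. Named genes were, per list, up to 8 with the largest called change, the 12 largest increases and 12 largest decreases among large differences of protein-coding genes averaging 20 CPM or more, SETD2 and VHL, and defining members, several of which (such as FN1, HMOX1 and AKR1C3) were picked after their values were seen. Promoter sequences are RefSeq's. Alternatives were limma 3.58.1 voom, DESeq2 1.42.0, other scalings and filters, single 786-O batches, a replicate block, and leaving out each library. The second set of libraries was fitted separately, and a 10-library fit of the difference between the sets was added after seeing the data. Some listed genes are counted in their lists but not reported here by name.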

Additional observations from a re-analysis of the deposited data

Results flagged for a closer look

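The line difference was itself compared between the 2 sets of libraries in an edgeR quasi-likelihood fit of 10 libraries, added after seeing the data. Its contrast is the difference between add-back A498 and wild-type 786-O minus that between deficient A498 and knockout 786-O, on the log2 scale. It called 1419 of 17314 genes (8.2%), 3923 at an unadjusted p under 0.05, and limma voom called 1482. Of 512 listed genes tested, 85 were called (16.6%). The 10 that were also called in opposite directions in the 2 sets are given here, with no cause tested.

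For the growth factor EGF the contrast was 2.41 (adjusted p = 0.00152), from 1.70 between the wild types and -0.72 in the second set. EPHA3 stood at 8.84 (adjusted p = 0.00199); it had 0 counts in wild-type 786-O, so this value depends on the prior count. Among hypoxia targets, IGFBP3 gave -3.15 (adjusted p = 2.18e-05) and STC2, a secreted glycoprotein hormone, -3.18 (adjusted p = 0.00124). SETD2, the targeted gene, gave -1.24 (adjusted p = 0.0123), with a knockout in 1 of the 786-O groups.

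CP, which encodes the copper carrier ceruloplasmin, gave -4.31 (adjusted p = 0.00352): it was at 12.01 and 14.8 CPM in add-back and 139 and 180.1 CPM in deficient A498. The mesenchymal factor SNAI2 gave -3.78 (adjusted p = 0.000281), and MMP2 gave -8.83 (adjusted p = 0.000271), with 7.57, 7.51 and 11.52 CPM in wild-type and 0.0601, 0.0976 and 0 CPM in knockout 786-O. The chemokine CXCL8 gave -4.32 (adjusted p = 0.0102). IFIT3, an interferon-stimulated gene, gave -1.46 (adjusted p = 0.00207).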

How the results depend on the processing

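Line, batch 3 and the absence of DMSO coincide in every setting, and 2 A498 libraries limit the precision. The number of genes called, 6617, stayed within 1.5-fold under other size factors, the DESeq2 Wald test, limma voom, no filter and the fit of all 16 libraries. Testing against a log2 threshold of 1 gave 2464 (1381 higher, 1083 lower in A498). With 786-O batch 1 only it was 10970 (5567 higher, 5403 lower), with 1364 large decreases, and with batch 2 only 12249 (6224 higher, 6025 lower). Batch 2 only and leaving out 786-O replicate 3 are the same fit, counted as separate alternatives below. Where a single 786-O batch remained, a large difference needed 4-fold against that batch only. A filter at a mean of 50 counts left 972 large differences, 470 of them higher, since fewer genes were tested. Leaving out single libraries gave 2205 to 12249 calls (1190 to 6224 higher, 1015 to 6025 lower), 1361 to 2447 large differences (770 to 1518 higher, 591 to 929 lower), and 3704 to 10828 calls in the second set. Other causes of these shifts were not tested.

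A replicate block on the shared numbers 1 and 2 gave 12076 calls (5872 higher, 6204 lower); the numbers pair no samples by the labels, and replicate 1 minus 2 in A498 and 786-O correlated at r = 0.025 over 11191 genes. Replicate 3 of 786-O has no partner and does not inform the difference there.

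Of 187 called named genes, 122 kept the call in all 5 fits without 1 library and 65 lost it, all 65 without an A498 library and 12 of them also without a 786-O library, and 0 were reversed in 16 alternatives. The 5 genes with a reversed sign were not called in the main comparison: with 786-O batch 1 only, ALDH1A1 gave -1.15, BAK1 0.66, KEAP1 0.52 and SPP1 -0.59, and CD44 gave -0.19 with batch 2 only, -0.19 to 0.31 without single libraries and -0.22 with the replicate block. Upper-quartile scaling moved the median of all genes from -0.05 to 0.04.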
